A study of Mus musculus with 21 samples.

Results

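The cytosolic ribosome is built from one protein per gene of a large family whose members are named Rpl for the large subunit and Rps for the small subunit. These genes were followed across RNA sequencing libraries from mouse aortic valves. They were found by symbol, as Rpl or Rps followed by a number, together with Rplp0 to Rplp2 and Rpsa, and without kinases, symbols marked as pseudogenes and genes on the sex chromosomes. Of 20872 rows in the deposited table, 87 carried such a symbol. The X-linked Rps4x, Rpl10, Rpl36a and Rpl39 were left out, which left 83 rows with 79 symbols. Of these, 70 were core subunit genes (42 of the large and 28 of the small subunit) and 5 were paralogs, that is, separate genes related to a core gene. The other 8 rows were Rps4y2 and rows that carried the symbol of a core gene, but their identifiers belong to intronless copies, to a non-coding transcript or to no current gene.

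The study asked what XCT790, a small molecule known as an inverse agonist of the nuclear receptor ERR alpha, does to valves of mice with a single working copy of Notch1. The 21 libraries formed 5 groups: WT (N1+/+, 4 libraries), N1het healthy (N1+/-, 6 libraries), N1het healthy XCT790 (5 libraries), N1het stenosis (N1+/- with aortic valve stenosis, 3 libraries) and N1het stenosis XCT790 (3 libraries). Every mouse, WT included, was generation 2 Terc-/-, lacking the RNA of telomerase, so no group had normal telomerase. Injections were daily and intraperitoneal, began when the mice were 4 weeks old and went on for 4 weeks, with XCT790 at 5 mg/kg/day or with solvent in its place. The titles define the groups used here, although a second label on the injected agent contradicts the title in 6 libraries. It gives control solvent for N1het healthy XCT790 1 to 3 and XCT790 for N1het stenosis 1 to 3, so that by this label no stenosis library received solvent. Whole valves were lysed, so the libraries mix cell types, and the labels do not say whether each library is a separate animal. The p-values then measure only the spread between these libraries, which may be technical.

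Ribosomal protein genes are transcribed strongly in every dividing or secreting cell, and most of their products are needed in equal numbers. Their mRNAs typically begin with a C followed by a run of pyrimidines, the 5′ terminal oligopyrimidine (TOP) tract, through which mTORC1 and the RNA-binding protein LARP1 control their translation. Several members have further roles: free Rpl5 and Rpl11 bind Mdm2 and thereby stabilise p53, and Rplp0 carries the acidic stalk formed with Rplp1 and Rplp2.

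The sequences around the annotated start show what these genes share before any level is compared. The stretches below run from 20 bases before to 19 bases after the first transcribed base, as RefSeq places it in GRCm38.p6. Capitals mark a C followed by at least 4 further C or T bases, searched on the sense strand with the C within 5 bases of the start on either side. Where a gene had several annotated starts, the one with the longest run was taken. Rps6, Rps18 and Rpl28 are shown as clear examples of the run. Rpl38, Rpl34, Rpl35 and Rps12 had some of the larger differences in stenosis. Some of the smaller ones were those of Rpl4, Rpsa and Rplp0, and also of Rps6 and Rpl28, which carry the run. Rps27l and Rpl22l1 are paralogs.
Rps6 (chr4:86857348-86857387, minus strand): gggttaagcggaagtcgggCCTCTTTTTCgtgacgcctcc
Rps18 (chr17:33955646-33955685, minus strand): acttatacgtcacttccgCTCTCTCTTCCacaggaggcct
Rpl28 (chr7:4792945-4792984, plus strand): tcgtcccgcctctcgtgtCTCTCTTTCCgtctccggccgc
Rpl38 (chr11:114668560-114668599, plus strand): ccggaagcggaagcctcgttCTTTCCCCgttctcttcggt
Rpl34 (chr3:130730318-130730357, minus strand): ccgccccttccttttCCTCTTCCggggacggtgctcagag
Rpl35 (chr2:39005112-39005151, minus strand): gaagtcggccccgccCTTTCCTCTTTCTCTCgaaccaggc
Rps12 (chr10:23787190-23787229, minus strand): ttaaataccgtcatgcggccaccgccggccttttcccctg
Rpl4 (chr9:64173367-64173406, plus strand): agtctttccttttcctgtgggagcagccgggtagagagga
Rpsa (chr9:120127746-120127785, plus strand): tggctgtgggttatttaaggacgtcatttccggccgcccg
Rplp0 (chr5:115559447-115559486, plus strand): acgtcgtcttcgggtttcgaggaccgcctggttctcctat
Rps27l (chr9:66946066-66946105, plus strand): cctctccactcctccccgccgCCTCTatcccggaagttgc
Rpl22l1 (chr3:28805488-28805527, plus strand): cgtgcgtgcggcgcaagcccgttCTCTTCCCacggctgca

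Such a run was present at the start of 25 of the 50 core genes found in the RefSeq promoter table, or 50%, against 21.2% of all 27025 genes in it. In Rpl34 and Rpl35 the pyrimidines went on upstream of the search limit, and the unbroken stretch of C and T around the capitals was 20 bases in Rpl34, 18 in Rpl35 and 11 in Rps18. No run met the definition in the window of Rps12, Rpl4, Rpsa or Rplp0, which says only that these letters were not at these annotated starts. The word CCGGAAG, searched on both strands of the 300 bases from 250 before to 50 after the start, occurred in 22 of the 50 genes (44%) against 9.93% of all genes. The word CTCTTTCC, searched the same way, occurred in 9 of the 50 (18%) against 3.57%, and it can overlap the pyrimidine run.

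The ribosomal protein rows took 2.56% to 5.65% of a library's reads. Depth ran from 8417033 to 27265905 reads, recovered from the deposited FPKM, which is a fragment count divided by gene length and library size. The 6 libraries with 17706464 reads or more are called deep: WT 1, N1het healthy 1 and 4, N1het healthy XCT790 1 and 2, and N1het stenosis XCT790 2. The cut was chosen here, and the next library had 15546824 reads, so depth itself shows no clear break. These deep libraries had 0.058% to 0.521% of reads from mitochondrially encoded genes, against 0.851% to 8.40% in the other 15. None was in the N1het stenosis group, and their part in the differences below was measured by leaving them out. Of the labelled tissue's own markers, for interstitial cells of the valve and fibroblasts, 9 of 9 were detected, and heart muscle markers were detected too (12 of 12), with summed FPKM from 35.4 to 4835 across libraries.

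The family moved largely as a block from library to library. The median log2(FPKM + 1) over the 83 rows was 7.85, 8.63, 8.0 and 8.27 in WT. In N1het healthy it ran from 7.73 to 8.52 with a median of 8.31. It was 7.98, 7.97, 8.73, 8.34 and 8.61 in N1het healthy XCT790. It was 8.79, 8.38 and 8.60 in N1het stenosis and 8.67, 8.37 and 9.02 in N1het stenosis XCT790. The lowest values belonged to deep libraries, and the stenosis libraries lay in the upper part of the range while overlapping every other group.

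**Figure D1:**
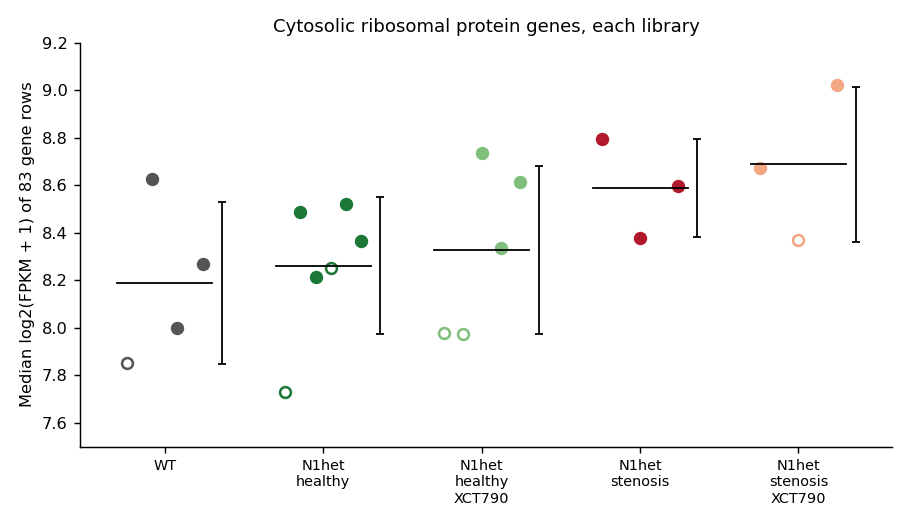
Median log2(FPKM + 1) of the 83 ribosomal protein rows in each of 21 libraries, by group. Points are libraries, open where the library is deep, lines are group means and bars are ± 1 SD. The lowest library is N1het healthy 1 at 7.73 and the highest N1het stenosis XCT790 3 at 9.02.

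Within groups, 73.3% of the core genes' summed squared deviations lay in the library median alone. The median within-group SD of a core gene was 0.34 on the log2(FPKM + 1) scale and 0.17 after each library was centred on its ribosomal protein median. Without centring, and so to be set beside 0.34, the SD was 0.67 over all genes tested. It was 0.43 over the 1213 other genes that averaged at least 50 FPKM. Rpl4 (SD 0.18), a large subunit protein, and Rps28 (0.22), a short small subunit protein, were among the least variable. Rpl3l (1.06), Rpl39l (1.01) and Rpl7l1 (0.93), all paralogs, varied most.

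**Figure D2:**
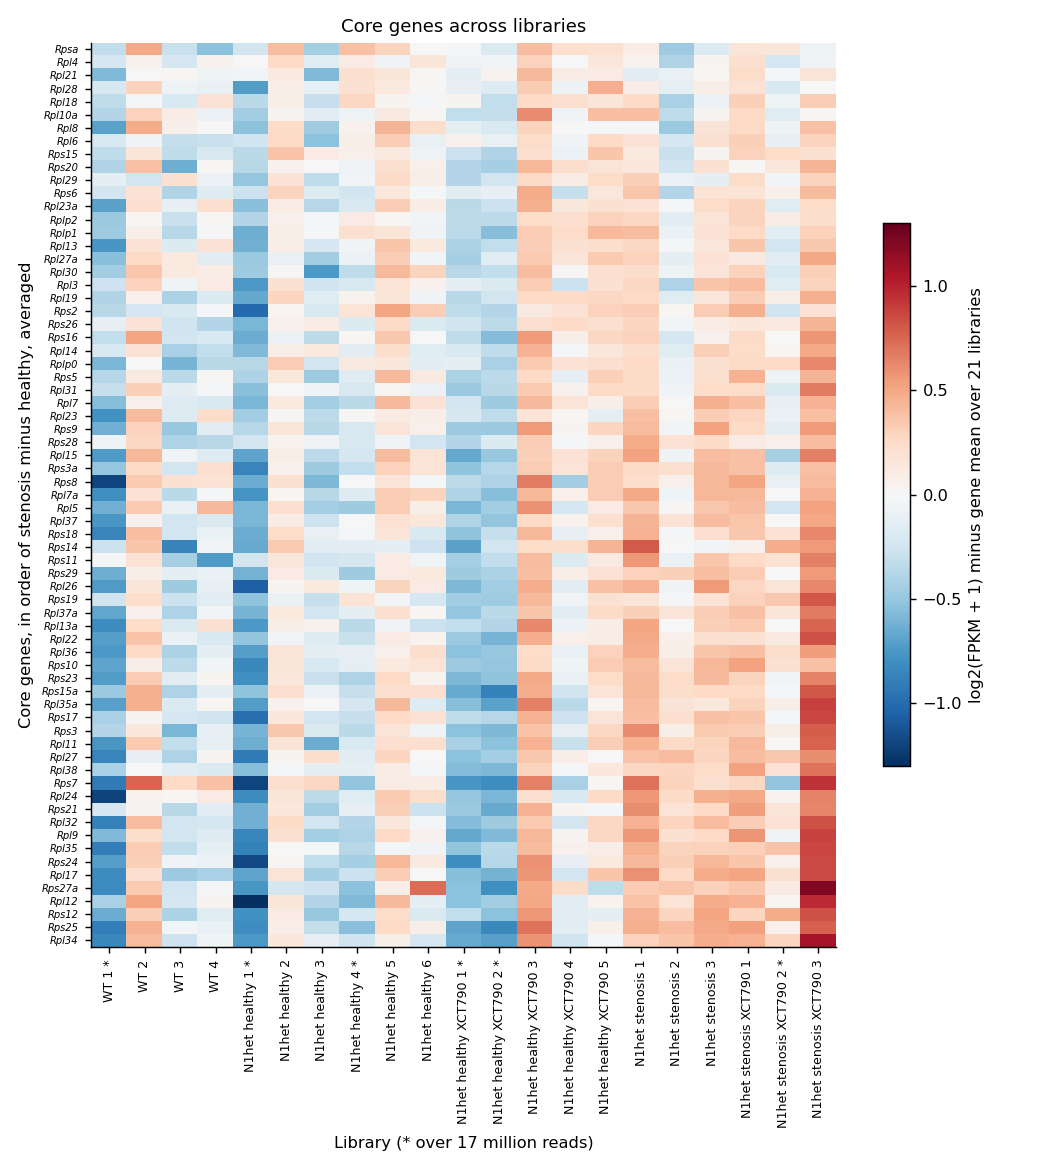
Log2(FPKM + 1) of core genes minus each gene's mean, in 21 libraries, with genes in order of their averaged stenosis minus healthy difference. Most columns have one colour from top to bottom, and the top rows, Rpsa and Rpl4, are the palest or most mixed in the stenosis columns.

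The deposited FPKM put the core genes in an order that followed the gene length used for the division. Mean FPKM ran from 55.0 for Rpl21 to 2466 for Rps23. The highest small subunit genes were Rps23 (2466 FPKM), Rps25 (2096) and Rps24 (1807), and the lowest were Rps20 (144), Rps27a (143), which is made as a fusion with ubiquitin, and Rps19 (74.1), a gene mutated in Diamond-Blackfan anaemia. The highest large subunit genes were Rpl31 (2160 FPKM), the stalk protein gene Rplp1 (2008) and Rpl37a (1723). The lowest were Rpl13a (100.02), Rpl35a (69.3) and Rpl21 (55.0).

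The length behind the FPKM, recovered from the values, was 504 bases for Rps23 and 434 for Rpl31, but 5741 for Rpl13a and 4685 for Rps19. Since FPKM is a read count divided by that length, part of the slope is arithmetic. With the length of the principal GENCODE transcripts instead, available for 69 of the 70, levels ran from 137 to 1992 on the same scale. Rpl13a then rose from rank 67 to rank 35 and Rps19 from 68 to 40, while Rps24 went from 5 to 31. The SD of the log2 levels among core genes was 1.31 by FPKM and 0.87 by principal length. Differences between libraries for one gene do not depend on that length.

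**Figure D3:**
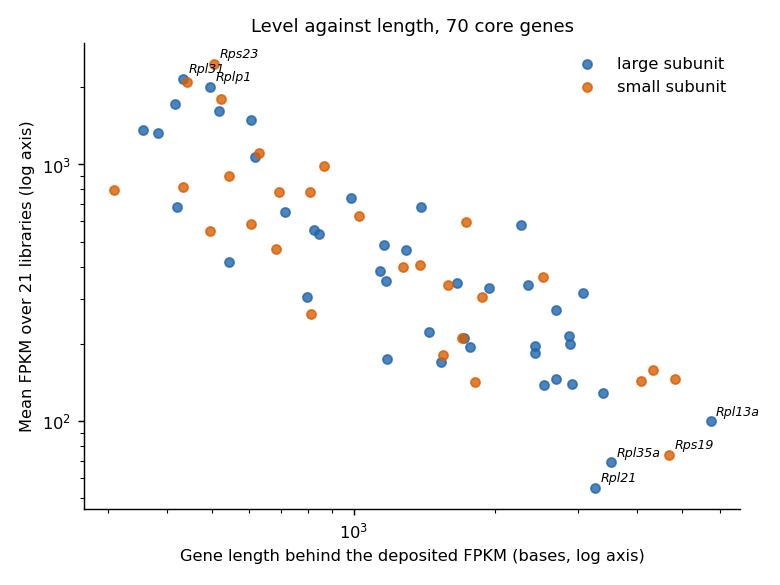
Mean FPKM over 21 libraries against the gene length behind the deposited FPKM for 70 core genes, both axes logarithmic, blue for the large and orange for the small subunit. Short genes such as Rps23 (504 bases) hold the top of the range, and long ones such as Rpl13a (5741 bases) hold the bottom.

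In stenotic valves, ribosomal protein rows were higher than in healthy valves of the same genotype by a small amount that was shared by most members, and no single member passed the test. With solvent and XCT790 averaged, 77 of 83 rows had a higher mean in stenosis, with a median log2 difference of 0.36, against 0.00 over all 14966 genes tested. Limma (Benjamini-Hochberg over all genes) called 0 of 83 rows at an adjusted p under 0.05, where it called 0.374% of all genes. At an unadjusted p under 0.05, 37 rows were higher and 0 lower, against 6.01% of all genes higher and 5.49% lower. The rows moved together from library to library, so these counts are not separate observations. With each library centred on its ribosomal protein median, 7 rows were higher and 7 lower at that p (1.15% of all genes higher).

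Core genes of the small subunit had a median difference of 0.40 (27 of 28 higher) and those of the large subunit 0.31 (38 of 42 higher). Other genes that averaged at least 50 FPKM had a median of 0.07. Core genes with and without a pyrimidine run at the start differed little, with medians of 0.36 (25 genes) and 0.39 (25 genes).

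Rps12, a small subunit protein, had the smallest p. Its FPKM was 336, 652, 395 and 472 in WT and ran from 305 to 622 with a median of 456 in N1het healthy. It was 422, 363, 780, 477 and 482 in N1het healthy XCT790. It was 720, 640 and 750 in N1het stenosis and 641, 735 and 939 in N1het stenosis XCT790. All 3 N1het stenosis libraries lay above all 6 N1het healthy libraries, while N1het healthy XCT790 3 reached the stenosis range. The averaged log2 difference was 0.64 ± 0.18 (SE), with a limma adjusted p of 0.14.

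Rpl38, a large subunit protein needed for the translation of some Hox mRNAs, was even within N1het stenosis. Its FPKM was 491, 493 and 480 there and 586, 466 and 665 in N1het stenosis XCT790. In N1het healthy it ran from 278 to 434 with a median of 388, and in N1het healthy XCT790 it was 276, 272, 497, 405 and 450. The averaged difference was 0.50 ± 0.15 (limma adjusted p 0.151). Rpl34, another large subunit gene, differed by 0.69 ± 0.21 (limma adjusted p 0.158).

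Members with known further roles or use as reference genes had averaged differences from -0.15 (Rpsa, described below) to 0.61. The family median was 0.36, and none of them passed the test. Rpl5 differed by 0.36 and Rpl11 by 0.49, the Mdm2-binding pair. Rpl26, which binds p53 mRNA, differed by 0.41, Rps3, also a DNA repair protein, by 0.48, and Rps27a by 0.61. Rpl13a and Rps18, both common reference genes in PCR, differed by 0.43 and 0.39, and Rplp0, another reference gene, by 0.24. Rps6, the substrate of S6 kinase, differed by 0.15 and Rps19 by 0.42.

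A few core genes had averaged differences below 0 while the family median was above it. Rpl4 FPKM was 700, 516 and 691 in N1het stenosis and 784, 577 and 657 in N1het stenosis XCT790, and ran from 606 to 807 with a median of 702 in N1het healthy. These groups overlapped, and the averaged difference was -0.12 ± 0.11. Rpsa, the laminin receptor precursor that sits in the small subunit, had a difference of -0.15 ± 0.16. Rpl21 and Rpl28 were at -0.01 and -0.0040.

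After each library was centred on its ribosomal protein median, the averaged differences of Rpl4 and Rpsa were -0.47 ± 0.14 and -0.49 ± 0.15. Their limma adjusted p-values were 0.107 and 0.118. On that scale, 0 of the 83 rows passed the test.

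**Figure D4:**
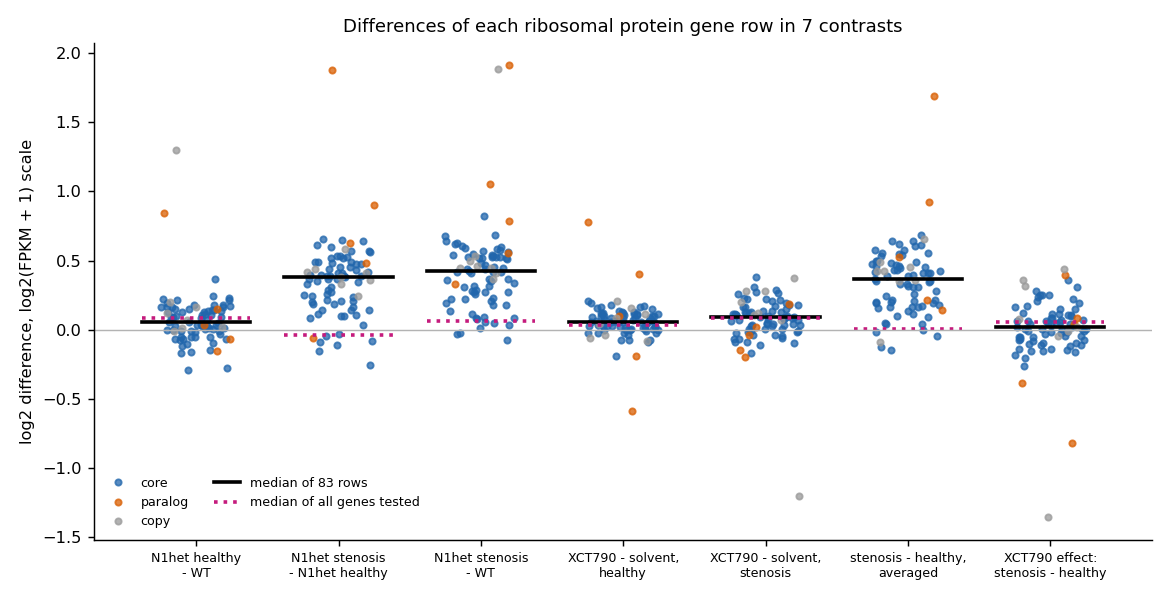
Log2 difference of each of the 83 rows in 7 contrasts, on the log2(FPKM + 1) scale, with core genes in blue, paralogs in orange and copies in grey. Solid lines are medians of the 83 rows and dotted lines medians of all 14966 genes. The solid line stands at 0.38, 0.42 and 0.36 in the 3 contrasts of stenosis with healthy or WT valves and within 0.1 of 0 in the other 4.

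Among N1+/- valves given solvent by their titles, the median difference between stenosis and healthy was 0.38 (75 of 83 rows higher), against -0.04 over all genes. Limma called 0 of 83 (0.0334% of all genes), and 9 rows were higher at an unadjusted p under 0.05, against 4.59% of all genes. In 12 of the 83 rows every N1het stenosis library exceeded every N1het healthy library, against 2.72% of all genes. These rows were Rpl11, Rpl27, Rpl32, Rpl34, Rpl35, Rpl38, Rps12, Rps15a, Rps25, Rps27l, Rps28 and Rps29. Rps28 differed by 0.43 ± 0.18 and Rpl35 by 0.57 ± 0.25 (limma adjusted p 0.427 and 0.47). By the agent label, these stenosis libraries received XCT790 and the healthy ones solvent. If that label is right, stenosis and agent cannot be told apart in this contrast.

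Against WT, N1het stenosis had a median difference of 0.42 (80 of 83 higher; all genes 0.06). Limma called 0 of 83 (0.0334% of all genes), and 18 rows were higher at an unadjusted p under 0.05 (6.35% of all genes). Both of these contrasts use the same 3 stenosis libraries, and the limit set by the agent label holds for both. In 13 rows the groups did not overlap (5.05% of all genes). The large subunit genes Rpl17 (0.82 ± 0.30, limma adjusted p 0.358), Rpl37 (0.63 ± 0.24, 0.368) and Rpl27 (0.69 ± 0.27, 0.392) were among the rows with the smallest p. Rpl17 FPKM was 574, 1184, 731 and 756 in WT and 1531, 1216 and 1423 in N1het stenosis, without overlap.

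The size of the shift depended on the libraries and the scale. With the deep libraries as a covariate the solvent median was 0.19, against 0.38 without it. Outside the deep libraries the medians were 0.22 for stenosis minus healthy under solvent, 0.28 against WT and 0.26 for the averaged contrast, and the rows higher at an unadjusted p under 0.05 numbered 2, 18 and 20. The averaged count was 16 without N1het stenosis XCT790 3. The solvent count was 1 without N1het stenosis 1, 2 without N1het stenosis 3, 3 without N1het healthy 1, 5 without N1het healthy 3 or 4, 15 without N1het healthy 2 and 16 without N1het healthy 5. The count against WT was 5 without WT 1 or N1het stenosis 1, 6 without N1het stenosis 3, 7 without WT 3 and 32 without WT 2.

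Mitochondrially encoded transcripts were higher in stenosis as well (7 of 7, median 1.25, averaged contrast). Rescaling each library to the same FPKM sum without them moved the averaged median of all genes to -0.14 and that of the 83 rows to 0.19. In the same setting the solvent median of stenosis minus healthy was 0.13, with 56 of 83 rows higher (all genes -0.24), and that against WT was 0.31.

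Cell-type markers moved with stenosis. All 11 macrophage markers were higher in the averaged contrast, with a median of 0.86. Their summed FPKM ran from 1131 to 1914 in WT, 866 to 1978 in N1het healthy, 1073 to 3177 in N1het healthy XCT790, 3222 to 5725 in N1het stenosis and 1648 to 6908 in N1het stenosis XCT790. All 9 markers of fibroblasts and valve interstitial cells were lower, with a median of -0.60. Their summed FPKM ran from 7402 to 11434 in N1het healthy and from 5358 to 6249 in N1het stenosis. No marker of either list was at 0 in all libraries, and their part in the ribosomal protein differences was not tested. In whole valves, fewer cells of a type and less RNA per cell cannot be told apart.

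Between healthy valves with one Notch1 copy and WT, no ribosomal protein row passed the test. N1het healthy minus WT had a median of 0.06 (58 of 83 higher), against 0.09 over all genes. This median ran from -0.04 without WT 1 to 0.20 without WT 2 (76 of 83 higher; all genes 0.10). It was -0.02 with median-of-ratios scaling (all genes 0.02), 0.14 with upper-quartile scaling (all genes 0.16) and 0.20 with the same FPKM sum without mitochondrially encoded genes (all genes 0.20). Limma called 0 of 83 (0% of all genes), and 1 row was higher at an unadjusted p under 0.05, against 5.29% of all genes. Rplp0 had the smallest p among core genes. Its FPKM was 223, 335, 221 and 261 in WT and ran from 262 to 424 with a median of 336 in N1het healthy, so that the groups overlapped through WT 2. The difference was 0.37 ± 0.19 (limma adjusted p 0.689). Rps15, with 0.22 ± 0.17, came next among core genes.

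For XCT790 against solvent, no ribosomal protein row passed the test in either state, and the family median depended on the libraries and the scale. In healthy N1+/- valves the median difference from solvent was 0.06 (63 of 83 higher; all genes 0.03) and in stenosis it was 0.09 (63 of 83 higher; all genes 0.09). With voom on recovered reads these medians were -0.0049 and -0.03. Outside the deep libraries they were 0.17 in healthy (74 of 83 higher; all genes 0.01) and 0.22 in stenotic valves (79 of 83 higher; all genes 0.06). With the deep libraries as a covariate the median in stenosis was 0.24 (81 of 83 higher; all genes 0.09), with 4 rows higher at an unadjusted p under 0.05. It was 0.28 with the same FPKM sum without mitochondrially encoded genes (all genes 0.25) and -0.06 without N1het stenosis XCT790 3. In healthy valves it ran from -0.05 without N1het healthy XCT790 3 to 0.16 without N1het healthy XCT790 2. Limma called 0 of 83 in both (0% of all genes in each), and 0 rows reached an unadjusted p under 0.05 in either direction, against 1.63% higher and 1.02% lower of all genes in healthy and 2.53% higher and 0.815% lower in stenotic valves. In stenosis, 3 of 83 rows were higher in all 3 XCT790 libraries than in all 3 solvent libraries (6.09% of all genes): Rps15, Rps19 and a copy of Rps13. Rps19 FPKM was 80.5, 71.2 and 82.4 under solvent and 89.2, 92.6 and 127 under XCT790, a difference of 0.38 ± 0.26. Rps15 differed by 0.28 ± 0.22.

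In healthy valves the smallest p among core genes was that of Rpl27a (0.19 ± 0.20) and the next that of Rpl28 (0.16 ± 0.18). The XCT790 effect in stenosis minus that in healthy valves had a median of 0.02 (all genes 0.05), with 0 of 83 called (0% of all genes) and 0 at an unadjusted p under 0.05 (2.02% of all genes higher and 0.962% lower). That median was -0.02 with median-of-ratios scaling, 0.15 with the deep libraries as a covariate (73 of 83 higher; all genes 0.05), 0.19 with the same FPKM sum (all genes 0.19), 0.17 without N1het stenosis XCT790 2 (72 of 83 higher) and -0.13 without N1het stenosis XCT790 3. With groups taken from the agent label in place of the titles, the XCT790 median in healthy valves was 0.23 (77 of 83 higher; all genes -0.04). No contrast of XCT790 with solvent in stenosis could then be made. The same holds for stenosis minus healthy under solvent and for the averaged contrast.

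Of the paralogs, Rps27l had the smallest p in the averaged contrast. It resembles Rps27 and is a p53 target. Its FPKM was 43.5, 158, 106 and 143 in WT and ran from 56.4 to 160.0 with a median of 121 in N1het healthy. It was 91.6, 63.2, 160, 102 and 98.0 in N1het healthy XCT790. It was 219, 196 and 217 in N1het stenosis and 198, 133 and 260 in N1het stenosis XCT790. The N1het stenosis libraries lay above all healthy and WT libraries, and only the deep library N1het stenosis XCT790 2 fell among them. The averaged difference was 0.92 ± 0.26 and the limma adjusted p 0.141, and after centring on the family median it was 0.58 ± 0.18 (limma adjusted p 0.148). Trp53, the gene of p53, differed by -0.87 ± 0.24 (limma adjusted p 0.127).

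Rpl39l, a paralog of Rpl39 best known from testis, was listed at 0 in all 4 WT libraries. In N1het healthy it was at 0 in 4 libraries and at 0.0441 and 0.0939 FPKM in the other two. It was 0, 0, 0.264, 0 and 2.61 in N1het healthy XCT790. It was 10.99, 0 and 3.45 in N1het stenosis and 3.10, 0 and 12.7 in N1het stenosis XCT790. Levels above 3 FPKM occurred in 4 of the 6 stenosis libraries and in none of the others, but each stenosis group also held a library at 0. Its mean of 1.58 FPKM over the 21 libraries passed the filter of 1 FPKM only through the stenosis groups, so no test of its difference is given on its own. It remains among the 83 rows counted above. With a filter of 5 FPKM, 8 rows under solvent and 17 against WT were higher in stenosis at an unadjusted p under 0.05, in place of 9 and 18. The X-linked Rpl39 had mean FPKM of 338 ± 99.4 (SD, n = 6) in N1het healthy and 545 ± 30.7 (SD, n = 3) in N1het stenosis.

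Rpl22l1, a paralog of Rpl22, was the most abundant of the 5. Its FPKM was 455, 339 and 456 in N1het stenosis and ran from 180 to 458 in N1het healthy, so the groups overlapped, and the averaged difference was 0.52 ± 0.27 beside 0.43 ± 0.18 for Rpl22 itself. Rpl7l1 ran from 3.65 to 28.8 FPKM in N1het healthy and from 7.80 to 57.1 in N1het stenosis XCT790, with overlap between all 5 groups, and its XCT790 difference in healthy valves was 0.78 ± 0.51. Rpl3l, the striated muscle form of Rpl3, was at 0 in 14 libraries. It reached 11.4 FPKM in N1het healthy 2 and 4.58 in N1het stenosis 2, whose mean log2 levels of heart muscle markers were 6.58 and 6.83 against a median of 2.70 over the 21 libraries. WT 4, with a marker level of 5.86, was at 0.

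**Figure D5:**
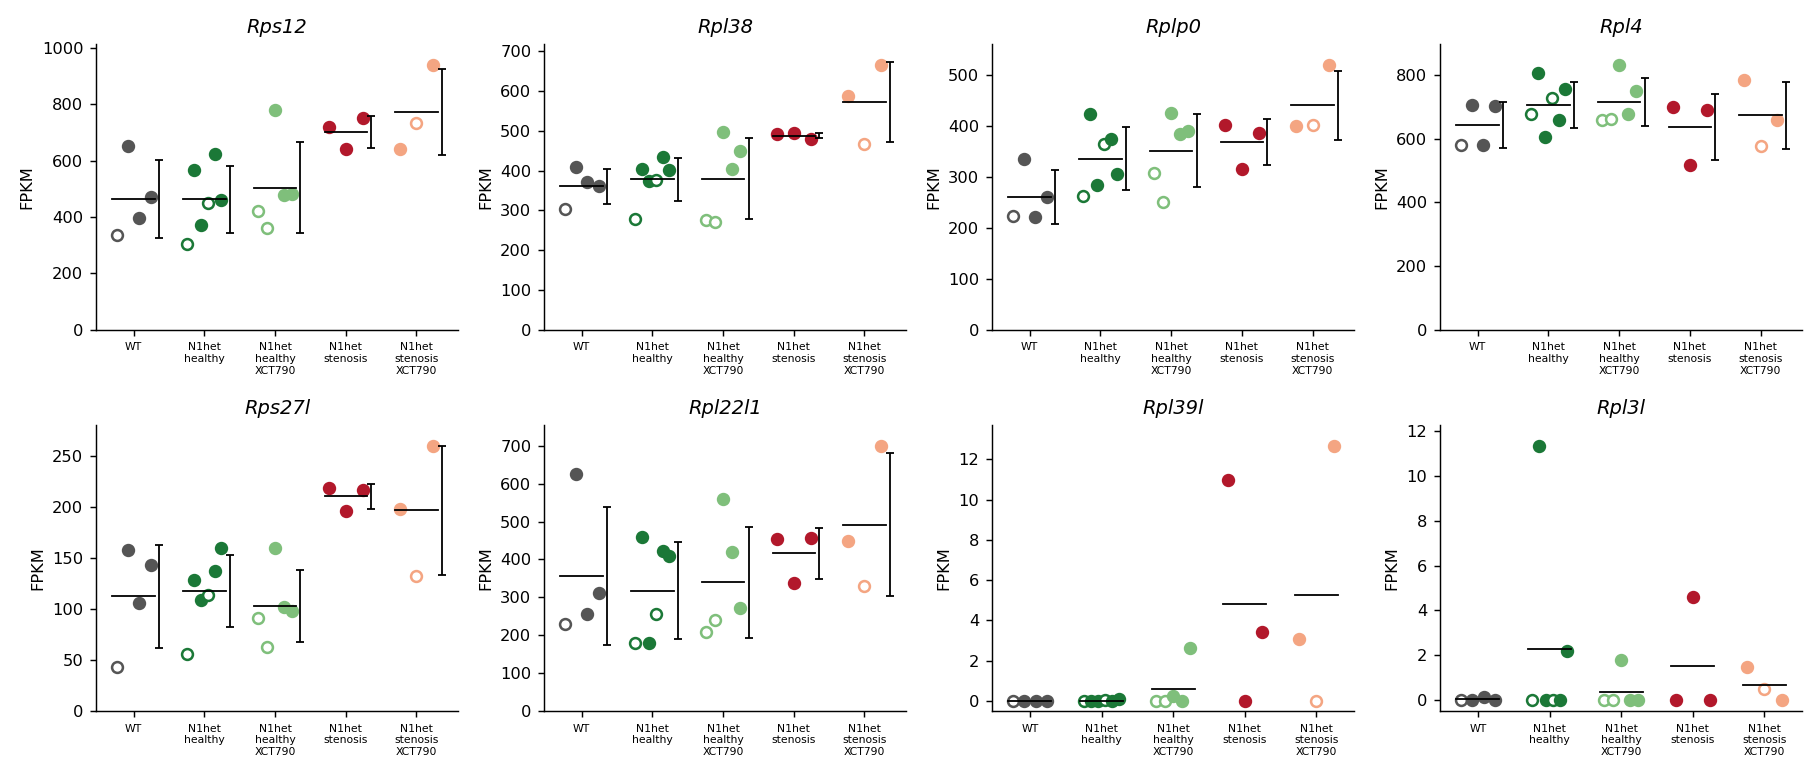
FPKM of 4 core genes (top) and 4 paralogs (bottom) in each library, by group. Points are libraries, open where deep, lines are group means and bars ± 1 SD, with no bars for Rpl39l and Rpl3l. Rps27l lies at 196 to 219 in N1het stenosis against 56.4 to 160.0 in N1het healthy, while Rpl4 overlaps between all groups.

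The 8 rows that are copies show the limits of assigning reads within this family, since near-identical sequences share reads. The 4 rows named Rpl41 belonged to a long non-coding RNA gene, a pseudogene and 2 identifiers absent from GENCODE M21, and 3 of them had a length of 78 bases. The rows named Rps13 belonged to pseudogenes on chromosomes 8 and 7, with mean FPKM of 78.6 and 13.0. The row named Rps27 belonged to a retrogene on chromosome 9, with a mean FPKM of 394. Rps4y2 is a transcribed pseudogene on chromosome 6, named Rps4l in GENCODE, and the most variable of the copies. It was 0.936, 6.09, 7.72 and 25.8 FPKM in WT, 31.4, 22.0 and 28.0 in N1het stenosis and 13.2, 7.30 and 14.2 in N1het stenosis XCT790. It was the single row of 83 that was lower in every XCT790 than in every solvent stenosis library (2.66% of all genes), and the difference of -1.2 ± 0.68 had a limma adjusted p of 1. Without the 8 rows the averaged stenosis median over 75 rows was 0.36.

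Subunit proteins that the symbol rule does not take in had averaged differences from -0.09 to 0.62, and none passed the test. Fau, the source of Rps30, differed by 0.44 ± 0.18 in the averaged contrast, and Rack1, listed as Gnb2l1, by 0.31 ± 0.19. Rps4x differed by 0.12 ± 0.15 and Rpl10 by -0.09 ± 0.16. Rpl36a differed by 0.41 ± 0.21 and Rpl39 by 0.62 ± 0.23 (limma adjusted p 0.277).

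Other genes of ribosome production had smaller median differences in the averaged contrast, and limma called 0 in each list. Of 25 further TOP-class genes, which include the elongation factors, 19 were higher (median 0.17). Eef1b2, a subunit of the elongation factor 1 exchange complex, differed by 0.62 ± 0.23 and the filament gene Vim by -0.39 ± 0.13. Of 28 initiation and termination factors, 21 were higher (median 0.11), and Eif5b, which joins the subunits, differed by 0.45 ± 0.17. Of 55 ribosome biogenesis genes, 34 were higher (median 0.12), with the nucleolar exonuclease gene Isg20l2 at -1.04 ± 0.26 (limma adjusted p 0.0855) and the nucleolar protein gene Ncl at 0.34 ± 0.15. Of 14 RNA polymerase I genes, 10 were higher (median 0.09), with Ubtf at 0.56 ± 0.23.

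Of 24 tested mTORC1 and Myc genes, 8 were higher (median -0.10), and Eif4ebp2, an inhibitor of the cap-binding protein, differed by -0.55 ± 0.19. Of 75 mitochondrial ribosomal protein genes, 48 were higher (median 0.16). In the solvent contrast alone, 1 biogenesis gene passed the test, against 0.0334% of all genes: Isg20l2 fell by 2.17 ± 0.36 (limma adjusted p 0.0217).

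In the authors' deposited table, 0 of the 83 rows were marked as significant in any of its 5 comparisons, where the authors marked 139 genes for N1het healthy against WT, 281 for stenosis against WT, 262 for stenosis against healthy, 26 for XCT790 in healthy and 56 for XCT790 in stenotic valves.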

How the data were processed

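RNA of 21 mouse aortic valve libraries came from lysed valves (RNeasy Micro) and was amplified by NuGEN's Ovation V2 kit, according to the labels' protocols. HISAT2, SAMtools, Picard, FastQC and mm9 appear in the submitters' processing notes, and for the counting program the sources used here give no name. The deposited table holds FPKM per gene made by the authors, and marks of significance. Whole reads and gene lengths were recovered from the steps of the FPKM: 100% of nonzero values came out whole within 0.01 reads. Differences were tested with limma 3.58.1 (R 4.3.3, trend and robust) on log2(FPKM + 1) of the 14966 genes averaging at least 1 FPKM, a filter passed by all 83 rows, as 5 group means with Benjamini-Hochberg adjustment at 0.05. A pseudocount of 1 understates changes of low genes. The averaged contrast is the mean of the stenosis minus healthy differences under solvent and under XCT790. Identifiers, biotypes and transcript lengths came from GENCODE M21 (GRCm38), which holds 92.3% of the table's identifiers, and start sequences from RefSeq. No coordinates of the authors' build were used. The identifier of the Rpl24 row belongs to another gene in M21, so it has no principal length. Reads shared by related sequences may be split by the authors' counting in a way that is not given. Depth was 8417033 to 27265905 reads, and amplified reads carry no molecular identifiers. The members and lists were chosen with earlier results of these data known. Named genes were the 5 members with the smallest p per contrast, extremes of level and spread, all paralogs, and a list of members with known roles, with the leading genes of each other list. Some genes that this rule takes in are not reported here. Alternatives were other pseudocounts, filters and scalings, voom on recovered reads, marker and depth covariates, a replicate block, grouping by the agent label and leaving out each library. The scaling without mitochondrially encoded genes and the set without copies were added after the data were seen.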

Additional observations from a re-analysis of the deposited data

Results flagged for a closer look

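Single libraries stood far from the rest of their group in 5 of 45 group checks (gap to the nearest library over the group's range, on the log2 scale, above Dixon's 95% critical value). Chance alone triggers that check in about 1 of 20 groups of normally distributed values. The rate does not hold for groups mostly at 0, such as those flagged for Rpl39l and Rpl3l. Neither stenosis group, with 3 libraries each, was checked. Rps27l was 56.4 FPKM and Rpl38 278 FPKM in N1het healthy 1, a deep library, below the other N1het healthy libraries. Rpl39l was 2.61 FPKM in N1het healthy XCT790 5. Rpl3l was 0.108 FPKM in WT 3 and 1.77 FPKM in N1het healthy XCT790 3, the highest libraries of groups whose others were at 0.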

How the results depend on the processing

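In every contrast and under every alternative run, 0 of the ribosomal protein rows passed limma at an adjusted p under 0.05. The number higher at an unadjusted p under 0.05 did change. For stenosis minus healthy under solvent (9 rows) it was 2 with libraries centred on the family median, 2 with the same FPKM sum without mitochondrially encoded genes, 2 outside the deep libraries, 17 with the heart muscle markers as covariate and 18 with voom on recovered reads, and 1 to 16 when leaving out one library. For stenosis minus WT (18 rows) it was 7 with median-of-ratios scaling and 4 centred, and 5 to 32 when leaving out one library. For the averaged contrast (37 rows) it was 7 centred, 17 with the same FPKM sum and 20 outside the deep libraries, and 16 to 45 when leaving out one library. The cause was not tested. Centred on the family median, the rows lower at that p numbered 5, 2 and 7 in the same order of contrasts. Over all genes tested, same-numbered libraries did not deviate together (mean correlation 0.010 over 34 pairs, from -0.11 to 0.13). That check cannot exclude a shared deviation in the family median alone. Replicate 1 had the lowest family median in WT (7.85) and N1het healthy (7.73), both deep libraries, and the highest in N1het stenosis (8.79). With the replicate block the counts were 28, 18 and 50, and the medians 0.51, 0.46 and 0.50. The limit on precision is 3 to 6 libraries a group with an SD of 0.31 between replicates in the family median.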
